A study of Mus musculus with 6 samples.

Results

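The genes described are the classical MHC class I chains of the C57BL/6 mouse and the machinery that loads them with peptide. They are 10 genes chosen by name, matched to the gene symbols of the deposited count table: H2-K1, H2-D1, B2m, Nlrc5, Tap1, Tap2, Tapbp, Psmb8, Psmb9 and Psmb10. These genes, and the lists used below, were chosen with earlier results of these data known. All 10 were found among the 52997 symbols of the table, and all 10 were abundant enough to be tested. RNA of CD4+ T cells from pooled lymph nodes was sequenced in infant mice of 10 days and in adult mice of 7 weeks, 3 libraries per age, each from 1 mouse and made from 1000 cells that had passed the sorter a second time. All mice were of the strain Foxp3-GFP (C57BL/6), a line in which a green fluorescent reporter marks the regulatory T cells that express Foxp3. The library titles call the cells Tconv and the series calls them naive. The sources used here do not give the gate's markers.

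A classical class I molecule is a heavy chain, here encoded by H2-K1 or H2-D1, held together with the light chain beta-2 microglobulin, the product of B2m. It carries a short peptide from inside the cell to the surface, where CD8 T cells read it. The peptides are cut by the proteasome, pumped into the endoplasmic reticulum by the transporter TAP and fitted into the heavy chain with the help of tapasin, and Nlrc5 is the transactivator that drives transcription of many of these genes. T cells themselves display much class I, and interferons and NF-kB raise its transcription in many cell types.

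Before the values, the start regions of the 3 chains and of Tap1 are shown as a description of sequence. The motifs marked in them were added after values had been seen, and a link between motifs and changes was not tested. Each run has 300 bases, from 250 before to 50 after the annotated start, in the direction of transcription (RefSeq, GRCm38.p6). Of the 10 genes, 8 had an entry of this length in the source used, and none was found for Nlrc5 and Tap2. Capitals mark matches, on either strand, to 4 elements that textbooks name for class I promoters: the NF-kB consensus, the interferon regulatory factor element AANNGAAA, the core TGACG of the X2 box that the Nlrc5 complex binds, and the CCAAT box.
H2-K1, chr17:34000298-34000597, minus strand: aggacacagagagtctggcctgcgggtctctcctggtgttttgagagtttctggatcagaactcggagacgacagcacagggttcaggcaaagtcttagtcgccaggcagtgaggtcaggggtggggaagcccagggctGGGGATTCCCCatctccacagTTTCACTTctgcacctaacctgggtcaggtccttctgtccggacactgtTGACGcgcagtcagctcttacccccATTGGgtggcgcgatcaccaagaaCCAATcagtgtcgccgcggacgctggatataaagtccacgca
H2-D1, chr17:35262844-35263143, plus strand: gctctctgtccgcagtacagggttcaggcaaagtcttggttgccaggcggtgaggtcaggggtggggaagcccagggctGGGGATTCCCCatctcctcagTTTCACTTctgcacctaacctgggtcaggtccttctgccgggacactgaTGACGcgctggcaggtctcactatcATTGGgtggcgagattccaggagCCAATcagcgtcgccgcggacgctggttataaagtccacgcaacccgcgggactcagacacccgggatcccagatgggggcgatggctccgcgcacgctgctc
B2m, chr2:122147437-122147736, plus strand: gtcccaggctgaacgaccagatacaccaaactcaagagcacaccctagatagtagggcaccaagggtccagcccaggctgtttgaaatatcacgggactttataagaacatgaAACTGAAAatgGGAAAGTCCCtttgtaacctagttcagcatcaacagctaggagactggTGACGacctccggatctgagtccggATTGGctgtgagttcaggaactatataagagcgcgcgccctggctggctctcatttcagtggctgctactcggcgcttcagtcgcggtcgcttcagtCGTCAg
Tap1, chr17:34187306-34187605, plus strand: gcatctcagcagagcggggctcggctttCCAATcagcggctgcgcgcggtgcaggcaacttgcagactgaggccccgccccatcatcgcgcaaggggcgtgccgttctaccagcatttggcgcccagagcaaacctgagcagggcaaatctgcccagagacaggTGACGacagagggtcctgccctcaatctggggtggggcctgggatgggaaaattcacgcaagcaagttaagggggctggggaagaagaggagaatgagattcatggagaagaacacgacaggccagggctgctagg

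H2-K1, H2-D1 and B2m held all 4 elements, and the window of another annotated H2-K1 start held them too. In H2-K1 and H2-D1 the NF-kB run consists of 2 overlapping matches within a stretch of 47 bases that is identical in both genes, and the IRF element lies just after it. B2m has the IRF element before the NF-kB match. Of 32851 such windows in the RefSeq table, 4.51% held the NF-kB consensus, 23.9% the IRF element, 20.8% TGACG and 37.4% the CCAAT box, and 30 windows (0.0913%) of 29 genes held all 4. Of those 29 genes, 8 were B2m or class I heavy chain genes: B2m, H2-K1, H2-D1, H2-M2, H2-M3, H2-Q4, H2-Q7 and H2-T22. Tap1 and Psmb9 are transcribed away from each other, their windows share 275 bases, and both held TGACG and CCAAT and neither of the other elements. The Tapbp window held only CCAAT, and the windows of Psmb8 and Psmb10 held none of the 4. The windows of H2-D1, Tapbp, Psmb8 and Psmb9 lie inside the gene positions given below, which come from another annotation. Sequence before the outer starts of those genes was thus not searched. A match is a description of letters and does not show binding, and a window without one says nothing of the factor.

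The infant libraries held 4115742 to 4739304 counts and the adult libraries 3421253 to 4887371. Adult replicate 2 stood apart, with 36373 genes detected, whereas the other 5 libraries had 17992 to 21840, so results on the 10 genes and the pathway lists are also given without it where that changes the call. Cd4 averaged 867 ± 10.4 CPM (counts scaled to a common library size; SD, n = 3) in infant and 979.9 ± 136 CPM in adult libraries. Cd3e, part of the CD3 signalling complex, averaged 599 ± 34.7 CPM in infant and 615 ± 20.6 CPM in adult libraries. Of 13 markers of CD4 T cells, 12 did not pass and 1 was called lower in infants, and without adult replicate 2 the count called lower was 2, with Lef1 added. Summed over the list, markers of B cells came to 674 to 805 CPM in infant and 712 to 837 CPM in adult libraries, nearly all of it Ighm. The 12 myeloid markers summed to 59.9 to 80.1 CPM in infant and 55.3 to 109 CPM in adult libraries. The 8 markers of natural killer and innate-like cells summed to 22.7 to 35.6 CPM in infant and 88.2 to 102 CPM in adult libraries, with Ncr1 at 0 in all 6 and Prf1 making up most of the sum. Stromal markers summed to 376 to 391 CPM in infant and 323 to 395 CPM in adult libraries, almost all Pecam1. Erythroid markers summed to 3.38 to 8.71 CPM in infant and 3.64 to 4.83 CPM in adult libraries, with Hba-a1 at 0 in all, and the CD8 pair to 32.0 to 41.8 CPM in infant and 31.3 to 36.5 CPM in adult libraries. The part of other cells in the results was not tested.

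Of the 10 genes, 2 fell in infant cells, H2-K1 and B2m, 0 rose and 8 did not pass at an adjusted p under 0.05 (edgeR's quasi-likelihood test, Benjamini-Hochberg adjustment over 11681 genes). Over all genes tested, 2.11% were called lower and 1.52% higher in infants. Because the 10 genes were chosen with earlier results known, the shares of all genes in this paragraph are no test of the set. The log2 fold change was negative in 9 of the 10, beside 5870 of all 11681 genes. Among these 9, Tapbp, Nlrc5 and Psmb10 changed sign in some alternative runs. The median of the 10 was −0.18, with a range of −0.58 to 0.024, against a median of −0.0017 over all genes. The 3 infant values lay wholly below the 3 adult values for 3 of the 10 (H2-K1, B2m and Psmb9), as they did for 11.6% of all genes, and wholly above for 0 of the 10, against 11.2% of all genes. The 95% intervals of the 3 chains and Psmb9, not adjusted for multiple testing, lay below 0, although H2-D1 and Psmb9 did not pass. The estimates for Tapbp and Psmb8 were close to 0, and contrasts between genes were not tested. In bulk libraries fewer cells with much class I and less RNA in each cell cannot be told apart.

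**Figure D1:**
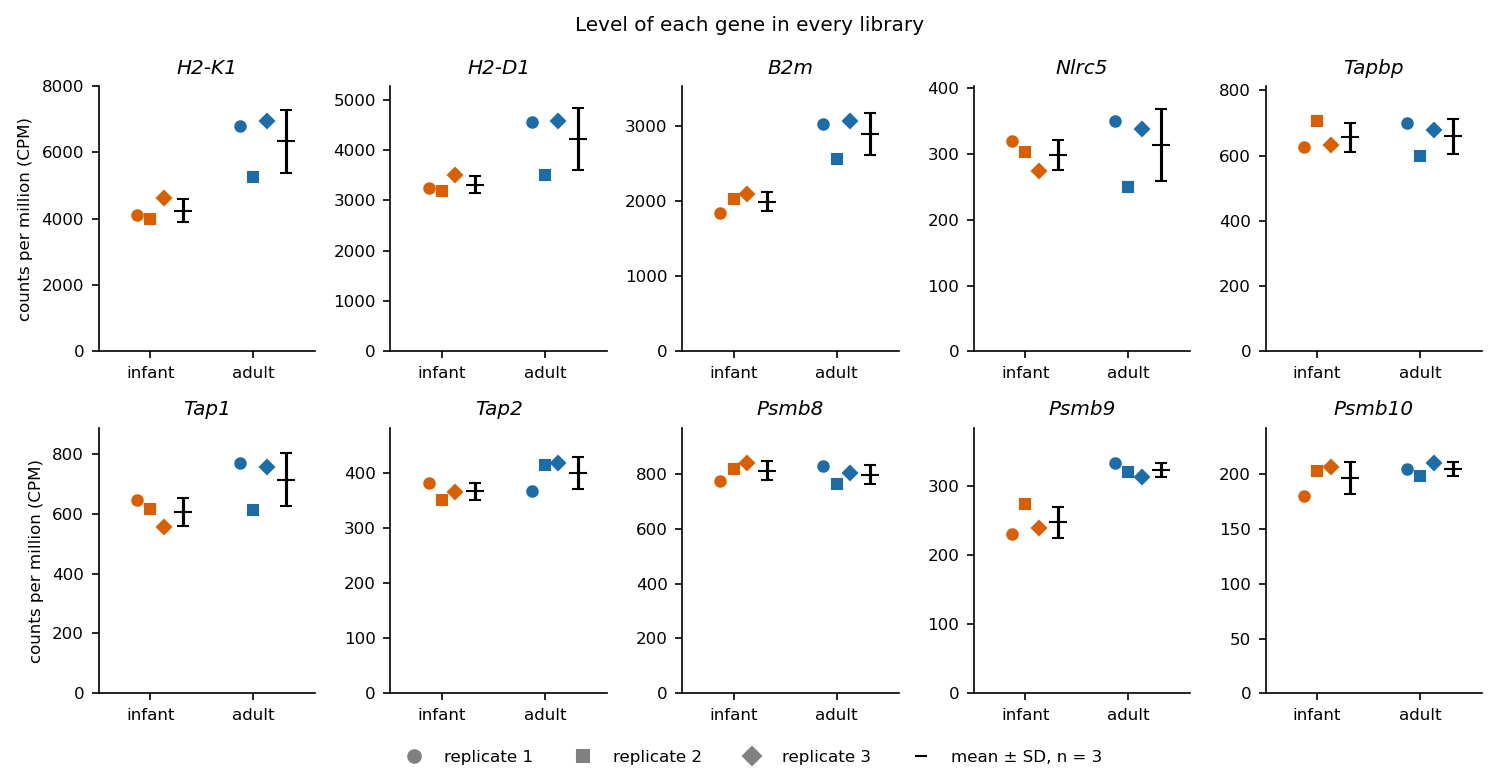
CPM of the 10 genes in each library, infant left and adult right, each panel with its own linear axis from 0; symbols are the 3 replicates and the bar gives the mean ± SD. H2-K1 lies between 4006 and 4633 CPM in infants, below all adult values, whereas Tapbp and Psmb8 overlap.

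The heavy chain H2-K1 is encoded on chromosome 17 (33996017 to 34000347, minus strand, mm10). It had 4102, 4006 and 4633 CPM in the infant libraries and 6784, 5246 and 6959 CPM in the adult libraries. Every infant value lay below every adult value, and adult replicate 2 was the lowest of the adults. The mean was 4247 ± 338 CPM in infant and 6329.5 ± 943 CPM in adult libraries (SD, n = 3), a difference of −32.9% (log2 fold change −0.58 ± 0.11, SE, 95% interval −0.81 to −0.34, edgeR adjusted p = 0.00856).

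The light chain gene B2m lies on chromosome 2 (122147686 to 122153083, plus strand), away from the MHC. It had 1849, 2025 and 2096 CPM in infant and 3031, 2565 and 3072 CPM in adult libraries. As for H2-K1, the groups did not overlap and adult replicate 2 was nearest to the infants. The mean was 1989.7 ± 127 CPM in infant and 2889 ± 281 CPM in adult libraries, a difference of −31.1% (log2 fold change −0.54 ± 0.10, 95% interval −0.75 to −0.33, edgeR adjusted p = 0.00656).

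H2-D1, the other classical heavy chain gene of this strain (chromosome 17, 35262730 to 35267499, plus strand), did not pass with all 6 libraries. It had 3239.7, 3185 and 3500.7 CPM in infant and 4563, 3500.5 and 4584 CPM in adult libraries. The groups met at a single point, where infant replicate 3 and adult replicate 2 had almost the same level, and the other 2 adult values lay well above all infants. The mean was 3309 ± 169 CPM in infant and 4216 ± 620 CPM in adult libraries (log2 fold change −0.35 ± 0.11, 95% interval −0.58 to −0.12, edgeR adjusted p = 0.0888). Without adult replicate 2, H2-D1 was lower by −0.47 ± 0.064 on the log2 scale (edgeR adjusted p = 0.00108).

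The calls depended on single libraries, as did the number of calls over all genes. Over all genes, 247 were called lower with all 6 libraries. That number was 99 without infant replicate 1, 84 without infant replicate 2, 109 without adult replicate 1 and 125 without adult replicate 3. Without adult replicate 2, 3 of the 10 were called lower, where 2.26% of all genes were: H2-K1 (−0.69 ± 0.068, edgeR adjusted p = 7.93e-05), B2m (−0.62 ± 0.071, adjusted p = 3.25e-04) and H2-D1. The call for H2-K1 was lost without infant replicate 1 or 2 or adult replicate 1 or 3 (edgeR adjusted p = 0.0578, 0.108, 0.0810 and 0.0570), and that for B2m without infant replicate 1 or 2 or adult replicate 1 (0.0516, 0.0690 and 0.0658). The log2 fold changes themselves stayed between −0.69 and −0.51 for H2-K1 and between −0.62 and −0.48 for B2m when any 1 library was left out.

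**Figure D2:**
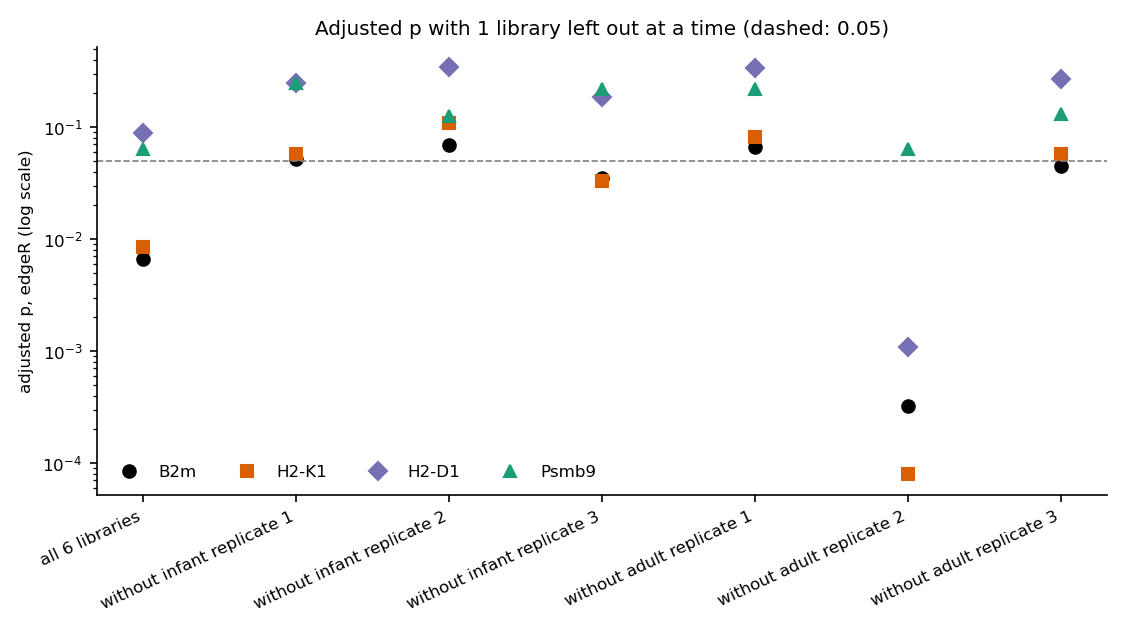
Adjusted p (edgeR, log axis) for 4 genes with all libraries and with each library left out in turn; the dashed line is 0.05. Without adult replicate 2 the 3 chains lie below the line, and Psmb9 stays above it at 0.0641.

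H2-K1 and H2-D1 are close copies of each other and of the H2-Q and H2-T genes, which matters for reads of 25 bases. Of the distinct 25-base windows in the annotated transcripts, 31.7% for H2-K1 and 36.3% for H2-D1 occur also in another gene, 15.3% and 18.7% in each other, and 9.80% and 10.4% in H2-Q7. These shares are of single windows, whereas the libraries were read as pairs, and the share of ambiguous pairs was not computed. Other genes share windows too, such as H2-Q10 with 12.45% of those of H2-K1 and 9.27% of those of H2-D1. H2-Q7 averaged 138 ± 9.93 CPM in infant and 644 ± 54.3 CPM in adult libraries, a difference of −506 CPM, beside −2083 CPM for H2-K1 and −907 CPM for H2-D1. These differences set no bound on the reads shared between the genes. The sources used here do not say how reads matching several genes were counted, and the part of such reads was not tested. B2m shares 0 windows with another gene.

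The chains also stood out by level. Per kilobase of annotated exon, B2m had 2314 ± 148 CPM in infant and 3360 ± 327 CPM in adult libraries, H2-K1 1445.5 ± 115 and 2154 ± 321, and H2-D1 1283 ± 65.4 and 1635 ± 240. Next came Psmb8 (239.6 ± 10.2 CPM per kilobase in infant and 236 ± 9.97 in adult libraries) and Tapbp (181 ± 12.3 and 182 ± 14.6). Psmb10 (115 ± 8.60 and 119.9 ± 3.65) and Tap1 (111 ± 8.33 and 130.05 ± 16.1) overlapped at both ages. Tap2 (97.1 ± 4.17 and 106 ± 7.56), Psmb9 (67.5 ± 6.20 and 88.0 ± 2.78) and Nlrc5 (35.2 ± 2.69 and 36.9 ± 6.44) closed the order. Neighbours in this order other than Psmb10 and Tap1 had ranges that did not overlap within an age. Some gaps were small: H2-K1 and H2-D1 came as near as 1364 and 1357 CPM per kilobase in infants and 1785 and 1778 in adults, and Tap1 and Tap2 as near as 101.39 and 101.28 in infants. The order was not corrected for sequence shared between genes. Of the 25-base windows, 28.4% for Tapbp, 15.6% for Tap2 and 15.1% for Psmb8 occur also in another gene. For Tap1, Psmb9, Nlrc5 and Psmb10 the share was 4.99% or less. The 10 genes together took 1.24% to 1.30% of all counts in infant and 1.49% to 1.74% in adult libraries, of which the 3 chains made up 73.8% to 76.7% and 78.2% to 80.6%.

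Ratios within a library do not depend on how libraries are scaled, and 7 were compared. H2-K1 counts were 1.27, 1.26 and 1.32 times those of H2-D1 in infant and 1.49, 1.4985 and 1.52 times in adult libraries. The groups did not overlap and the spread within each was small (log2 difference −0.23, two-sided exact permutation p = 0.1, adjusted over the 7 ratios 0.175). With 3 libraries against 3 no smaller p can be reached. B2m counts were 0.252, 0.282 and 0.258 times the summed heavy chains in infant and 0.267, 0.293 and 0.266 times in adult libraries. Here the groups overlapped (log2 difference −0.064, exact permutation test, two-sided p = 0.4, adjusted 0.467). The difference was −0.031 without infant replicate 1, −0.11 without infant replicate 2 and −0.018 without adult replicate 2.

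**Figure D3:**
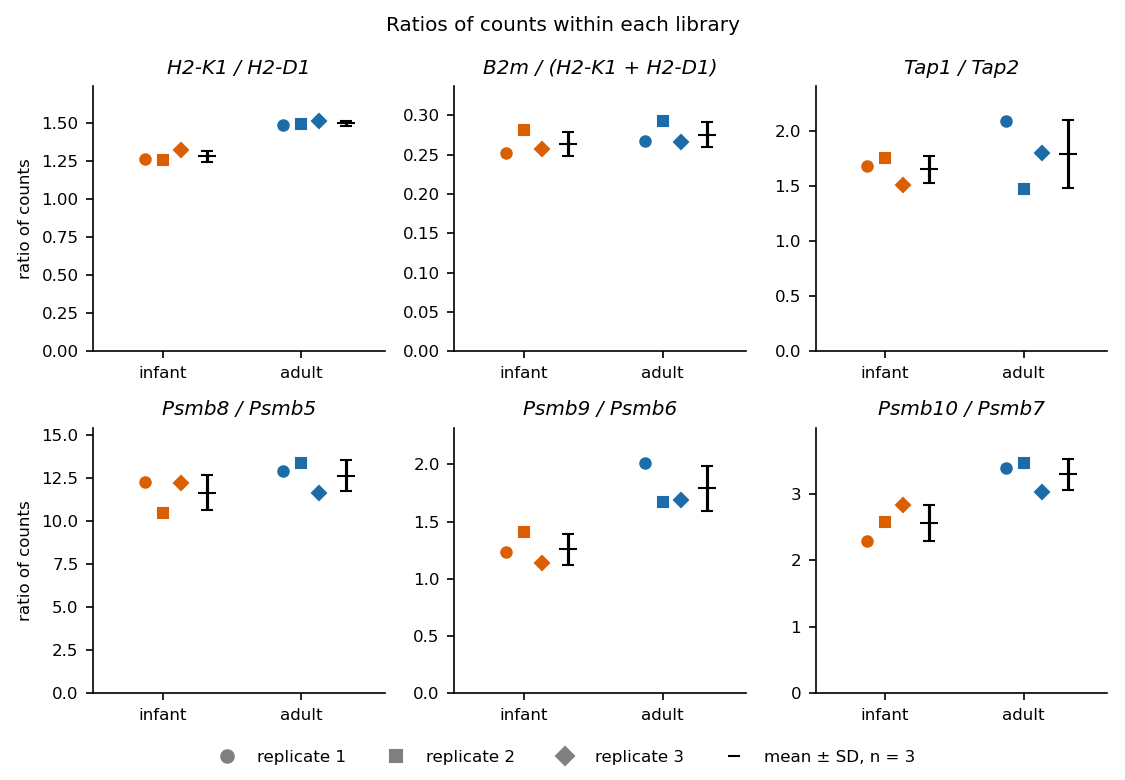
Ratios of counts within each library, infant left and adult right, linear axes from 0; symbols are replicates and the bar gives the mean ± SD. H2-K1 to H2-D1, Psmb9 to Psmb6 and Psmb10 to Psmb7 have lower ratios in all infant than in all adult libraries, and the other 3 panels overlap.

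Nlrc5, the class I transactivator (chromosome 8, 94434356 to 94527272), had 319, 304 and 274 CPM in infant and 351, 250.3 and 338 CPM in adult libraries. The highest and the lowest value were both adult (log2 fold change −0.067 ± 0.13, 95% interval −0.35 to 0.21, edgeR adjusted p = 0.854). Without adult replicate 2 the estimate was −0.20 ± 0.10 (edgeR adjusted p = 0.326), and without adult replicate 1 it was 0.023. The interval with all 6 libraries overlaps the upper ends of those of H2-K1 (−0.81 to −0.34) and B2m (−0.75 to −0.33). A contrast between these genes was not tested.

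Tap1 and Tap2 encode the chains of the peptide transporter and lie close to each other on chromosome 17 (34187553 to 34197225 and 34203527 to 34216321). Tap1 had 644, 616 and 555 CPM in infant and 769.97, 611 and 756 CPM in adult libraries. Adult replicates 1 and 3 lay above all infants, and adult replicate 2 lay among them (log2 fold change −0.23 ± 0.11, 95% interval −0.47 to 0.0044, edgeR adjusted p = 0.302; without adult replicate 2 −0.33 ± 0.089, adjusted p = 0.0534). Tap2 had 383, 351 and 367 CPM in infant and 368, 415 and 419.6 CPM in adult libraries, with overlap at adult replicate 1 (−0.13 ± 0.10, 95% interval −0.34 to 0.091, edgeR adjusted p = 0.585). The Tap1 to Tap2 ratio was 1.68, 1.75 and 1.51 in infant and 2.09, 1.47 and 1.80 in adult libraries (log2 difference −0.10, exact permutation test, two-sided p = 0.6, adjusted 0.6), and leaving out infant replicate 3 gave −0.043, leaving out adult replicate 1 gave 0.017 and leaving out adult replicate 2 gave −0.24.

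Tapbp encodes tapasin, which tethers the empty heavy chain to TAP (chromosome 17, 33915899 to 33929292). It had 628, 707 and 632 CPM in infant and 699, 599 and 678 CPM in adult libraries, fully interleaved. Its log2 fold change of −0.0068 ± 0.10 had a 95% interval of −0.22 to 0.21 (edgeR adjusted p = 0.985). A contrast between Tapbp and the chains was not tested.

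The immunoproteasome differs from the constitutive proteasome by 3 catalytic subunits, each of which takes the place of 1 constitutive subunit: Psmb8 that of Psmb5, Psmb9 that of Psmb6 and Psmb10 that of Psmb7. Psmb9 (chromosome 17, 34181987 to 34187764) had 230.1, 273 and 238 CPM in infant and 333, 320.2 and 313 CPM in adult libraries. All infants lay below all adults, with adult values close together, but the gene did not pass (a difference of −23.3%, log2 fold change −0.38 ± 0.11, 95% interval −0.61 to −0.16, edgeR adjusted p = 0.0635). Psmb9 passed with the DESeq2 Wald test (adjusted p = 0.0186), with limma-voom (adjusted p = 0.0499) and under the stricter filter on low counts (edgeR adjusted p = 0.0468).

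Psmb8, which lies between Tap1 and Tap2 (chromosome 17, 34197721 to 34201454), had 773, 817 and 840.2 CPM in infant and 828, 761 and 802 CPM in adult libraries. The values were interleaved (log2 fold change 0.024 ± 0.093, 95% interval −0.17 to 0.22, edgeR adjusted p = 0.934). Psmb10, on chromosome 8 (105935735 to 105938444), had 179.6, 203 and 207 CPM in infant and 205, 198 and 210.4 CPM in adult libraries, again with overlap (−0.058 ± 0.11, 95% interval −0.29 to 0.17, edgeR adjusted p = 0.846). Psmb9 thus had the lowest estimate of the 3 immunosubunits, although that contrast among subunits was not tested.

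**Figure D4:**
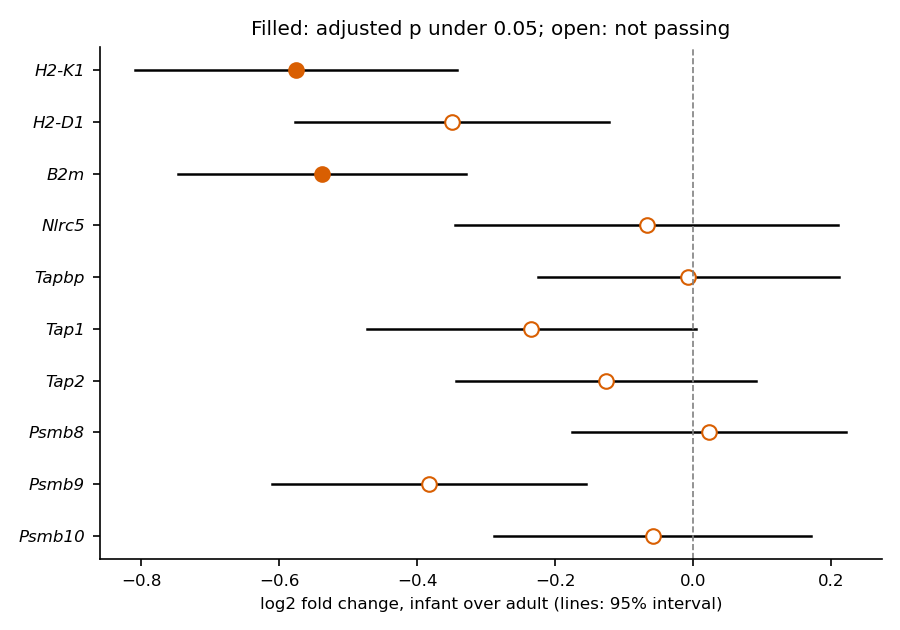
Log2 fold change of each gene, infant over adult, with its 95% interval; filled points passed an adjusted p under 0.05 (H2-K1 and B2m). The intervals of H2-K1, H2-D1, B2m and Psmb9 lie below 0, and those of the other 6 genes include 0.

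Set against the subunit it replaces, Psmb9 had 1.23, 1.40 and 1.14 counts for each count of Psmb6 in infant and 2.01, 1.67 and 1.69 in adult libraries, with no overlap (log2 difference −0.51, exact permutation test, two-sided p = 0.1, adjusted 0.175). Psmb10 had 2.29, 2.57 and 2.83 counts for each of Psmb7 in infant and 3.38, 3.47 and 3.03 in adult libraries, also with no overlap (log2 difference −0.36, exact permutation p = 0.1, adjusted 0.175). For Psmb8 and Psmb5 the ratios were 12.3, 10.5 and 12.2 in infant and 12.9, 13.4 and 11.6 in adult libraries and overlapped (log2 difference −0.12, exact permutation p = 0.3, adjusted 0.42), with −0.044 without infant replicate 2 and −0.075 without adult replicate 2. Summed, the 3 immunosubunits had 3.60, 3.68 and 3.66 counts for each count of the constitutive 3 in infant and 4.71, 4.18 and 4.10 in adult libraries. The infant sums were close together and lay below every adult one (log2 difference −0.24, exact permutation test, two-sided p = 0.1, adjusted 0.175). Of the denominators, Psmb7 had 76.8 ± 3.18 CPM in infant and 62.4 ± 6.35 CPM in adult libraries, and Psmb6 had 197 ± 11.4 CPM in infant and 181 ± 13.9 CPM in adult libraries, neither passing (edgeR adjusted p = 0.287 and 0.635).

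Outside the 10 genes, the rest of the pathway was followed in 6 lists. Over these lists, of 59 tested genes 0 were called lower and 0 higher by edgeR, with a median log2 fold change of 0.049. At an unadjusted p under 0.05 (edgeR), 6 were lower and 10 higher, beside 1054 lower and 964 higher of all 11681 genes. Among chaperones of the endoplasmic reticulum, 0 of 7 passed (median −0.044): Pdia3, the thiol oxidoreductase that partners tapasin, had a log2 fold change of −0.044 ± 0.098, and Hspa5, the chaperone BiP, of 0.19 ± 0.12. Among peptidases that trim class I peptides, 0 of 8 passed (median 0.097). Erap1, which trims in the endoplasmic reticulum, had 315, 326 and 322 CPM in infant and 266, 195 and 285 CPM in adult libraries. Every infant library was above every adult one (log2 fold change 0.37 ± 0.13, edgeR adjusted p = 0.156), and without adult replicate 2, its lowest library, the estimate was 0.22. Its endosomal relative Lnpep had a log2 fold change of 0.25 ± 0.11 (edgeR adjusted p = 0.251).

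Proteasome genes outside the immunosubunits had more positive than negative estimates, beside 5811 positive of all 11681 genes. No gene of these lists passed, and the signs were not tested. Of the activator PA28 and the assembly factors, 0 of 8 passed (median 0.050), with Psme1 at −0.11 ± 0.096 and Psme2 at 0.019 ± 0.12. The 3 constitutive catalytic subunits had positive estimates (median 0.14, 0 passing), as did 9 of the 11 other subunits of the proteasome core (median 0.11, 0 passing). Of these, Psmb1 had −0.10 ± 0.11 and Psma1 had 0.11 ± 0.11.

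Of 22 known regulators of class I transcription, 0 passed with all libraries (median −0.10). At an unadjusted p under 0.05 (edgeR), 5 were lower and 3 higher, beside 1054 lower and 964 higher of all 11681 genes. Jak1, the kinase shared by interferon receptors, had a log2 fold change of −0.095 ± 0.091. Irf9 and Nfya, named here after their values were seen, lay nearest to the threshold. Irf9, the DNA-binding subunit of the type I interferon complex, had 230.1, 249.8 and 235 CPM in infant and 317, 302 and 308 CPM in adult libraries, with no overlap (−0.38 ± 0.10, edgeR adjusted p = 0.0539). Nfya, a subunit of the factor that binds the CCAAT box, had 17.2, 13.1 and 17.6 CPM in infant and 32.2, 21.6 and 33.1 CPM in adult libraries, also apart (−0.86 ± 0.24, edgeR adjusted p = 0.0657). Without adult replicate 2 both were called lower (edgeR adjusted p = 0.0436 for Irf9 and 0.0280 for Nfya).

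Among the other class I genes, which are not classical, 7 of 11 tested fell and 0 rose (median −0.43), beside the 2.11% of all genes called lower. The count was 3 without infant replicate 1 or 2 or adult replicate 1 or 3, 4 without infant replicate 3, and 7 without adult replicate 2. Over all genes, 84 to 125 were called lower in these fits, except without adult replicate 2 (271), against 247 with all 6 libraries. H2-Q6, H2-Q7, H2-Q5 and H2-Q4 had log2 fold changes of −4.47 ± 0.17, −2.22 ± 0.11, −3.96 ± 0.37 and −0.73 ± 0.15 (edgeR, all past an adjusted p of 0.05). The call for H2-Q4 held in 2 of the 6 fits with 1 library left out, and the limit on short reads applies to all 4. Of 3 tested class II genes, H2-DMa, part of the class II peptide editor, fell (−0.77 ± 0.20, edgeR adjusted p = 0.0492), and that call was lost without any 1 of the 6 libraries. H2-Aa, H2-Ab1 and H2-Eb1, which define antigen-presenting cells, did not pass the filter and had at most 15.2 CPM, in infant replicate 2.

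**Figure D5:**
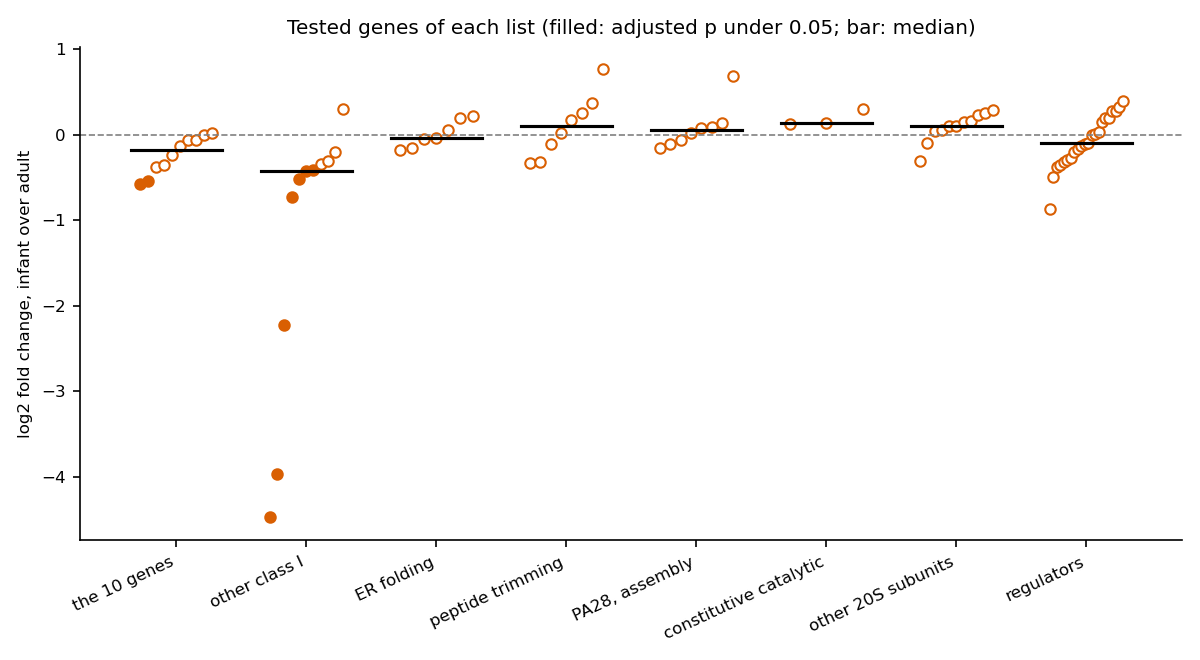
Log2 fold change, infant over adult, of every tested gene in the 10 genes and 7 related lists; filled points passed an adjusted p under 0.05 and the bar is the list's median. Points that passed occur among the 10 genes and the other class I genes, and in the other 6 lists the medians lie between −0.10 and 0.14.

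Over the 6 libraries, the genes outside the pathway whose centred log2 CPM lay nearest to that of B2m, among 4444 genes of at least 50 CPM, were Rps3a1 (a ribosomal protein), Tpt1 (a translationally controlled protein), Saraf (a regulator of calcium entry), Trat1 (an adaptor of the T cell receptor) and Kmt2a (a histone methyltransferase), at root mean square differences of 0.050, 0.051, 0.053, 0.054 and 0.059 on the log2 scale. By the same measure H2-K1 ranked 12th (0.073), H2-D1 75th (0.12) and Psmb9 122nd (0.13), and the other 6 genes ranked between 420 and 1558. The profile of B2m over these libraries was thus closer to that of H2-K1 than to those of the loading genes. The measure includes the difference between the ages. Rps3a1, Tpt1, Saraf, Trat1 and Kmt2a had log2 fold changes of −0.48, −0.46, −0.55, −0.54 and −0.58, and B2m had −0.54. All of these passed an adjusted p under 0.05 (edgeR). The ranking is therefore not separate from the fold changes, and whether genes vary together within an age was not tested.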

How the data were processed

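The deposited table holds raw read counts per gene symbol for 6 libraries, not normalized, and was made with STAR 2.5.4 and featureCounts on mm10 per the submitters' processing notes. Per the labels' protocols, RNA was copied from an oligo(dT) primer, amplified by PCR, fragmented by transposase (Nextera XT) and read as pairs of 25 bases. The protocol names no strand marking and no molecular identifiers, so antisense reads cannot be separated and counts include PCR copies. The sources used here give neither the annotation release nor how multi-mapping reads were handled. Tap1 and Psmb9 share 212 bases of exon on opposite strands.

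Genes were tested with edgeR 4.0.16 (R 4.3.3): filterByExpr (minimum count 10, minimum total 15) kept 11681 genes, with TMM factors, the quasi-likelihood F test and Benjamini-Hochberg adjusted p-values called at 0.05. Each log2 fold change sets infant over adult, SE is the absolute log2 fold change over the square root of F, and CPM uses the tested total times the TMM factor. The 10 genes had 697 to 32571 counts per library, and a floor of 3 counts is 0.628 to 0.852 CPM, for counting error only. The series states 1 mouse per replicate. Exon lengths and positions came from GENCODE M21 (same build; union of exons, which can include parts not transcribed here). The script was tested on simulated counts.

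The genes and lists were chosen with earlier results of these data known. Named genes were the 10, up to 4 of smallest p in each list among those passing or else the 2 of highest CPM, the 5 nearest to B2m, and Cd4 and Cd3e; a few genes that the rule or the marker lists would name are not reported here. Ratios were tested by exact permutation. The 3 ratios of single subunits and the motifs were added after values had been seen. Alternatives were DESeq2 1.42.0 and limma-voom (limma 3.58.1), other scalings, filters, equal depth, a replicate block and leaving out each library.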

Additional observations from a re-analysis of the deposited data

How the results depend on the processing

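Leaving out 1 library gave 139 to 488 called genes in all (425 with all 6), 0 to 3 of the 10 genes called lower (2 with all 6), 0 to 2 pathway genes called lower and 0 called higher. Of the 10 genes, 0 were called lower with no filter on low counts (39470 genes tested; H2-K1 and B2m at edgeR adjusted p of 0.109 and 0.1303) and 4 with the DESeq2 Wald test, which added H2-D1 and Psmb9. H2-D1 passed with upper-quartile factors, library totals, DESeq2 and without adult replicate 2. None of the 10 was called higher under any of the 16 alternatives. Pathway genes called lower numbered 1 with upper-quartile factors, library totals, the strict filter and limma-voom (Irf9 each time), 1 with no filter (Nfya) and 2 with DESeq2 (both); 1 was called higher with library totals (Ifngr1) and 1 with no filter (Psme3). Of the other class I genes, 3 to 7 were called lower with 1 library left out, 4 with no filter and 5 with the replicate block (7 with all 6 libraries). The cause of these changes was not tested.

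Estimates near 0 changed sign. Tapbp was at 0.0015 with library totals, 0.029 with no filter and −0.070 to 0.040 with 1 library left out. Nlrc5 was at −0.20 to 0.023, Psmb8 at −0.0073 to 0.063, Psmb10 at −0.098 to 0.0091, Pdia3 at −0.081 to 0.0098 and Psme2 at −0.043 to 0.13 with 1 library left out, and Psme2 at −0.025 at equal depth. The Tap1 to Tap2 difference ranged from −0.24 to 0.017 with 1 library left out, and the other 6 ratios kept their direction in every alternative run.

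Same-numbered libraries did not deviate together (correlations of deviations −0.047, −0.011 and −0.092). With 3 libraries per age this check gave no sign of pairing by number, and it cannot exclude pairing. With the replicate block 326 genes were called, and H2-K1 and B2m kept their calls. For the ratios the block changes only the test, whose smallest p is 0.25. Other scalings moved the median of all genes by −0.0068 to 0.0051 on the log2 scale.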
